A study of Arabidopsis thaliana with 8 samples.

Results

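The genes described here are 10 NAC transcription factors of Arabidopsis thaliana with known roles in stress and leaf senescence: ORE1, ORS1, NAP, JUB1, ANAC019, ANAC055, RD26, ATAF1, ATAF2 and VNI2. They were chosen by locus, and each locus was matched to its probes through the RefSeq transcript that the array files name for a probe. The match gave 16 probes for the 10 genes, of 43603 probes on the array, and the 10 genes are among 25102 genes tested. The gene table lists ORE1 as NAC6, JUB1 as NAC042, VNI2 as NAC083, and both ORS1 and ANAC055 as NAC3, so the loci tell them apart. Each of the 16 lay well above background on every array, and none was saturated.

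Leaf transcripts were measured on 1-colour Agilent arrays, 4 of the transgenic genotype 35S::Rap2.9-GFP and 4 of the wild-type accession Col-0, which is also the background of the transgenic plants. The transgene drives RAP2.9, an AP2/ERF transcription factor, as a fusion with green fluorescent protein from the viral 35S promoter, which is active in most plant tissues. All plants were 54 days old and untreated, and the labels do not say how many independent transgenic lines were used. The series design calls the 4 samples of a genotype biological replicates, and the genotypes were compared to find the transcripts that differ when RAP2.9 is overexpressed.

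NAC factors are specific to plants and bind DNA through a conserved domain at the N terminus, while their C termini differ and activate or repress transcription. During ageing, ethylene, abscisic acid (ABA), jasmonate and light signals converge on a few of them, which switch on chlorophyll breakdown, nuclease and protease genes. ORE1, ORS1, NAP and ATAF1 are known to promote leaf senescence, JUB1 and VNI2 to delay it, ANAC019, ANAC055 and RD26 to act in ABA and jasmonate responses, and ATAF2 in wounding and pathogen responses.

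NAP and ANAC055 were higher in the transgenic leaves, and the other 8 genes did not pass the test. NAP rose 2.13-fold and ANAC055 2.55-fold, with an adjusted p of 0.00504 and 0.00746 in limma over all genes tested, where the threshold was 0.05. The 2 of 10 genes that rose, 20%, stand beside 18.6% of all genes tested. None of the 10 fell at this threshold, where 16.0% of all genes did. At an unadjusted p under 0.05, 3 of the 10 were higher and 1 was lower. That makes 4 of 10, beside 45.4% of all genes. The median log2 change was 0.06 over the 10 genes and 0.03 over all genes. Signals below are log2 values over the 75th percentile of the same array, and changes are those of 35S::Rap2.9-GFP minus Col-0. In leaf tissue, more or fewer cells of a type and more or less RNA per cell cannot be told apart.

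**Figure D1:**
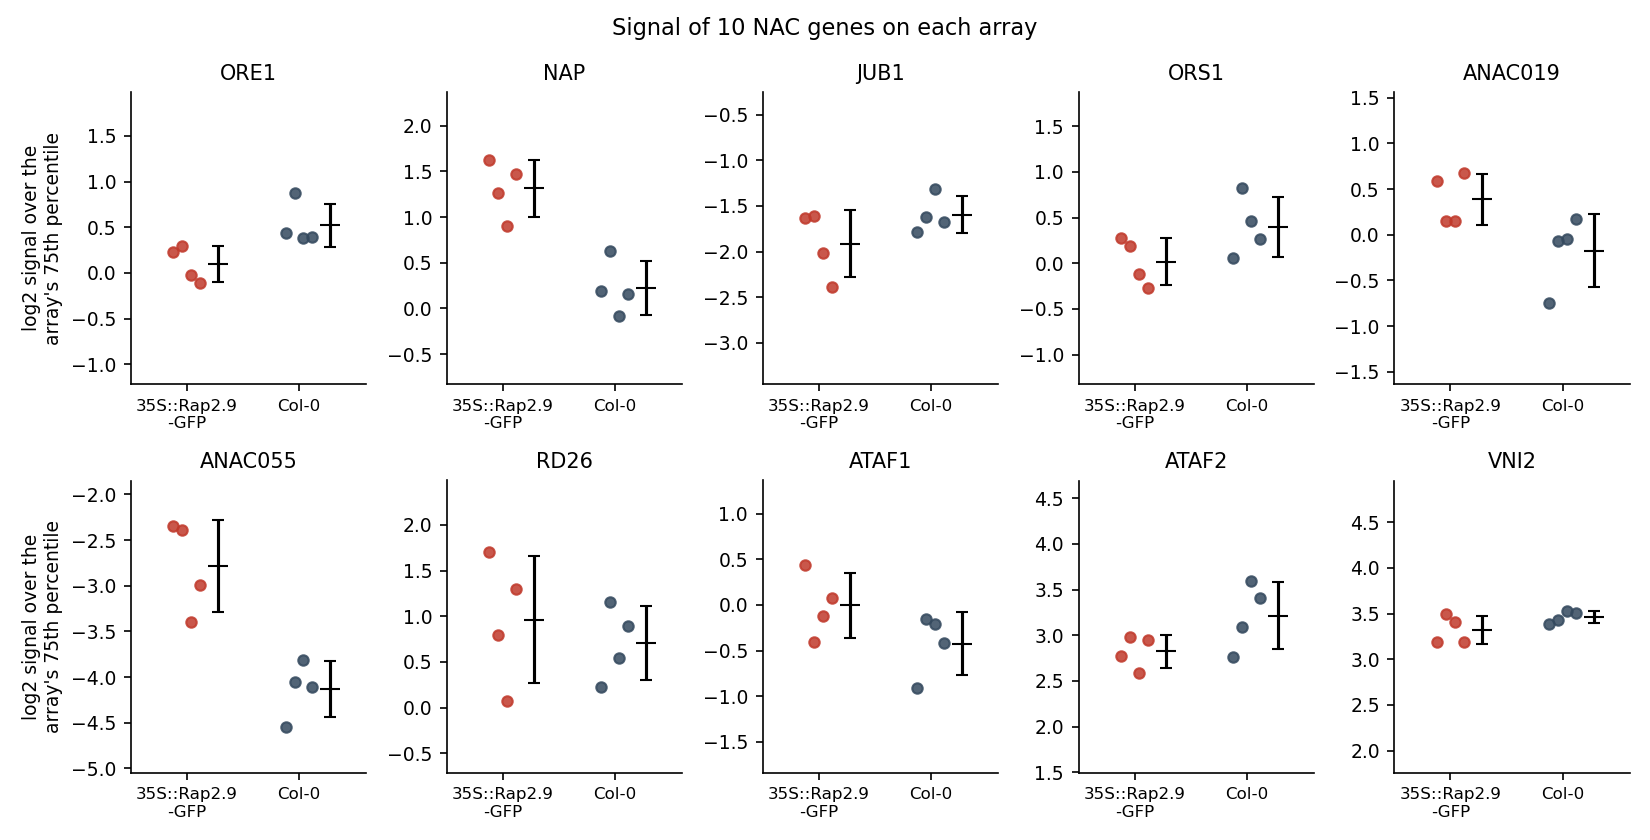
Signal of the 10 NAC genes on the log2 scale, relative to the 75th percentile of each array, with 1 point per array, 35S::Rap2.9-GFP left and Col-0 right, and the mean ± SD of 4 arrays beside the points. The panels share the height of their axis but not its position. NAP and ANAC055 separate upward, with means of 1.32 and -2.78 in the transgenic leaves against 0.22 and -4.13 in Col-0, and ORE1 separates downward.

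Among the promoters of senescence, NAP (AT1G69490) encodes a factor that raises the phosphatase gene SAG113 and the ABA synthesis gene AAO3 in ageing leaves. Its signal was 1.63, 1.26, 0.90 and 1.47 in transgenic replicates 1 to 4, against 0.19, 0.63, -0.09 and 0.16 in Col-0 replicates 1 to 4. Every transgenic array lay above every Col-0 array, as in 19.7% of all genes. The log2 change was 1.09 ± 0.20 (SE, n = 4 per genotype), with a 95% interval of 0.63 to 1.55. A dimmer second probe of NAP changed by 1.00 ± 0.23 (SE), also with no overlap, and its adjusted p over all probes was 0.0136. Of the 16 probes of the 10 genes 3 rose and none fell, beside 18.1% of all probes that rose and 33.9% that changed either way. On the 2 slides, each with 2 arrays per genotype, the change was 1.32 and 0.87, and it did not pass within either slide (adjusted p = 0.0521 and 0.220). Of all genes, 2.1% passed within slide 1 and 0% within slide 2, so a gene could hardly pass there. With any 1 array left out the change of NAP passed, with an adjusted p of at most 0.0178.

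ORE1 (AT5G39610), the NAC factor best known for driving age-dependent leaf death and a target of the microRNA miR164, did not pass the test. Its signal was 0.23, 0.29, -0.03 and -0.11 in transgenic replicates 1 to 4, against 0.43, 0.88, 0.38 and 0.40 in Col-0 replicates 1 to 4. All transgenic arrays lay under all Col-0 arrays, as in 17.0% of all genes. Together with NAP and ANAC055, 3 of the 10 genes had no overlap, beside 36.7% of all genes. The log2 change was -0.43 ± 0.14 (SE), with a 95% interval of -0.76 to -0.09 and an adjusted p of 0.0540. An exact two-sided permutation test gave p = 0.0286, the smallest that 4 arrays against 4 allow. Every gene without overlap gets this p, so it adds nothing to the lack of overlap. The change was -0.32 on slide 1 and -0.53 on slide 2. Without transgenic replicate 2 the adjusted p was 0.0496, and with scaling by each array's median it was 0.0220, both past the threshold. Col-0 replicate 2 stood above the other Col-0 arrays, which were between 0.38 and 0.43, and without it the change was -0.31 (adjusted p = 0.0857).

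ORS1 (AT3G29035), the paralogue of ORE1 that also accelerates senescence, had signals of 0.27, 0.19, -0.11 and -0.27 in transgenic replicates 1 to 4, against 0.06, 0.82, 0.46 and 0.26 in Col-0 replicates 1 to 4. The genotypes overlapped. Its change of -0.38 ± 0.19 (SE) did not pass (adjusted p = 0.158), and its dimmer probes changed by -0.23 and -0.21. The changes of ORE1 and ORS1 differed by -0.05, a difference with an exact two-sided permutation p of 0.743.

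JUB1 (AT2G43000), a hydrogen peroxide-induced factor that delays senescence and lowers gibberellin and brassinosteroid synthesis, also did not pass. The 4 transgenic arrays had -1.64, -1.61, -2.01 and -2.39, against -1.79, -1.62, -1.31 and -1.67 in Col-0. Transgenic replicates 3 and 4 were under every Col-0 array, while replicates 1 and 2 lay among them. The change was -0.32 ± 0.19 (SE), with a 95% interval of -0.76 to 0.13 and an adjusted p of 0.237.

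ANAC055 (AT3G15500) acts with its relatives ANAC019 and RD26 downstream of the jasmonate regulator MYC2 and of ABA. It had -2.35, -2.39, -3.39 and -2.99 in transgenic replicates 1 to 4, against -4.55, -4.05, -3.81 and -4.11 in Col-0 replicates 1 to 4. The genotypes did not overlap, and transgenic replicate 3 came nearest to Col-0. The log2 change was 1.35 ± 0.27 (SE), with a 95% interval of 0.73 to 1.97. The processed signal behind it was low, at 505, 325, 245 and 322 units in transgenic leaves against 92.0, 124, 123 and 100.2 units in Col-0. With another background correction, normexp, the change was 0.66 and the adjusted p 0.307, so the call was lost. Of all genes, 11.1% passed with normexp, against 34.6% as reported. These shares stand beside every loss with normexp given below. The change of ANAC055 was 1.49 and 1.21 within the slides (adjusted p = 0.120 and 0.186), where 2.1% and 0% of all genes passed. With each array left out in turn the adjusted p of ANAC055 was at most 0.0224.

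ANAC019 (AT1G52890) had 0.59, 0.15, 0.15 and 0.67 on the transgenic arrays, against -0.75, -0.07, -0.05 and 0.17 on the Col-0 arrays. Only Col-0 replicate 4 reached the transgenic range. The change of 0.56 ± 0.22 (SE), with a 95% interval of 0.05 to 1.08, did not pass after adjustment (adjusted p = 0.0871).

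RD26 (AT4G27410), a drought- and ABA-induced factor, varied most between arrays of a genotype. Its signal was 1.70, 0.79, 0.07 and 1.29 in transgenic replicates 1 to 4, against 0.23, 1.15, 0.54 and 0.90 in Col-0 replicates 1 to 4. The Col-0 arrays lay within the transgenic range. The change was 0.26 ± 0.36 (SE), with a 95% interval of -0.59 to 1.10 and an adjusted p of 0.614. It was 0.65 on slide 1 and -0.14 on slide 2, opposite in direction.

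The changes of the 3 relatives were set against each other by an exact two-sided permutation test, chosen after the values were seen. That of ANAC055 exceeded that of ANAC019 by 0.79 and that of RD26 by 1.09, each with a permutation p of 0.0286, the smallest the design allows. Adjusted over the 5 pairs of relatives compared, p was 0.0714 for both, so neither difference passed. ANAC019 and RD26 differed by 0.30 (permutation p = 0.371).

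ATAF1 (AT1G01720), which activates ORE1 and represses the chloroplast maintenance gene GLK1, and ATAF2 (AT5G08790), which responds to wounding and represses defence genes, did not pass. ATAF1 had 0.43, -0.41, -0.12 and 0.08 in transgenic replicates 1 to 4, against -0.91, -0.16, -0.21 and -0.42 in Col-0 replicates 1 to 4. ATAF2 had 2.77, 2.98, 2.59 and 2.95 in transgenic replicates 1 to 4, against 2.76, 3.09, 3.60 and 3.41 in Col-0 replicates 1 to 4. For both genes the genotypes overlapped, ATAF2 at its Col-0 replicate 1. The change was 0.42 ± 0.22 (SE, adjusted p = 0.185) for ATAF1 and -0.39 ± 0.19 (SE, adjusted p = 0.146) for ATAF2. Without Col-0 replicate 1, the change of ATAF2 was -0.54 and passed (adjusted p = 0.0375). The dimmer probes of ATAF1 changed by 0.35 and 0.39 and that of ATAF2 by -0.38. The difference of 0.81 between the changes of ATAF1 and ATAF2 had an exact two-sided permutation p of 0.0571, and 0.0952 after adjustment over the 5 pairs.

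VNI2 (AT5G13180), which represses xylem vessel formation and, under salt and ABA, delays senescence through cold- and drought-response genes, had the narrowest spread. Its signal was 3.19, 3.49, 3.40 and 3.19 in transgenic replicates 1 to 4, against 3.39, 3.43, 3.53 and 3.51 in Col-0 replicates 1 to 4. The genotypes overlapped. The change was -0.14 ± 0.08 (SE), with a 95% interval of -0.34 to 0.05 and an adjusted p of 0.228.

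**Figure D2:**
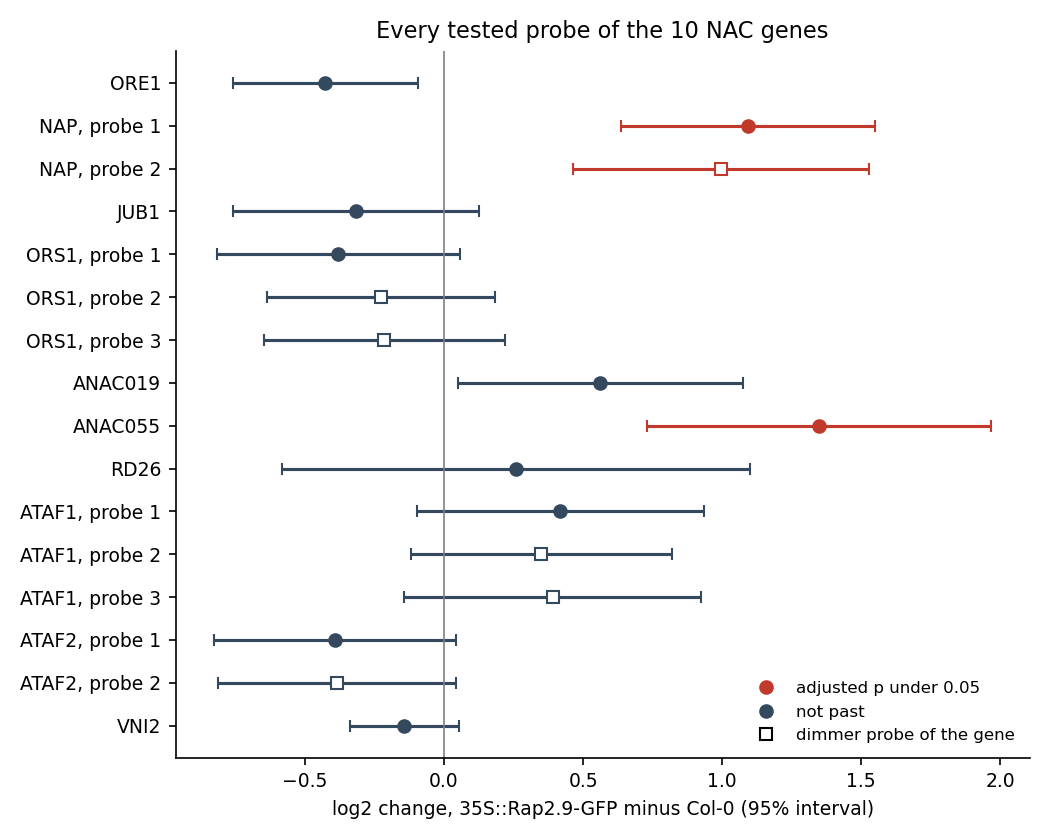
Log2 change of each of the 16 probes of the 10 NAC genes, 35S::Rap2.9-GFP minus Col-0, with its 95% interval from limma. Filled circles are the brightest probe of a gene and open squares its dimmer probes. The probes of a gene lie on the same side of 0, and both NAP probes and the ANAC055 probe are past the threshold.

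Some arrays were high or low for several of the 10 genes. Transgenic replicate 1 had the highest transgenic signal for 5 of the 10 genes and transgenic replicate 3 the lowest for 5. Col-0 replicate 1 was the lowest Col-0 array for 8 of the 10 genes, and Col-0 replicate 2 the highest for 5. The share of probes well above background was 84.3% on transgenic replicate 1 and 72.5% to 79.7% on the other 7 arrays, and its part in these ranks was not tested.

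The genes with the most similar pattern over the 8 arrays were found for both genes that rose, by the root mean square difference of the centred log2 signals. For NAP, which had an SD of 0.65 over the 8 arrays, these were the small auxin-up RNA gene SAUR23 (AT5G18060) at 0.0951 and AT1G29420 at 0.105. SAUR23 had 1.67, 1.24, 0.86 and 1.44 in transgenic replicates 1 to 4, against 0.41, 0.70, 0.05 and 0.34 in Col-0 replicates 1 to 4. Within each genotype its order of arrays was that of NAP. SAUR23 was picked for its likeness on these same arrays, so the shared order is no separate result. For ANAC055, with an SD of 0.82, the nearest were AT4G05030 at 0.207 and AT5G59170 at 0.216, a looser likeness. AT4G05030 was well above background on 2 of the 4 Col-0 arrays, and its call was lost in 3 of 8 fits without 1 array. With normexp AT1G29420, AT4G05030 and AT5G59170 lost their calls (adjusted p = 0.764, 0.992 and 0.931), and SAUR23 kept its own.

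The gene table holds 100 NAC family genes, and 75 were tested, of which 14 rose and 8 fell in the transgenic leaves. That is 29.3%, beside 34.6% of all genes. Outside the 10 genes, NAC003 (AT1G02220) rose by 2.00 ± 0.18 (SE), NAC004 (AT1G02230) by 1.54 ± 0.28, the xylem vessel regulator VND6 by 1.18 ± 0.25, NAC073 by 1.14 ± 0.30 and NAC045 by 1.04 ± 0.34. NAC049 fell by 1.18 ± 0.39 (SE), the fibre wall regulator SND1 by 1.06 ± 0.29, ANAC100 by 0.96 ± 0.17, ANAC041 by 0.65 ± 0.11 and ANAC079 by 0.57 ± 0.10. In the family ANAC055 had the third largest positive change, after NAC003 and NAC004. NAC045 was well above background on 2 of the 4 Col-0 arrays and VND6 on 3, and the calls of NAC045 and NAC049 were lost in 6 and 7 of 8 fits without 1 array. The call of SND1 was lost in 4 of these fits and that of NAC073 in 3, and the family's count of higher genes was lowest, at 7, without Col-0 replicate 4. With normexp only ANAC041 of these 10 kept its call (adjusted p = 0.0139).

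**Figure D3:**
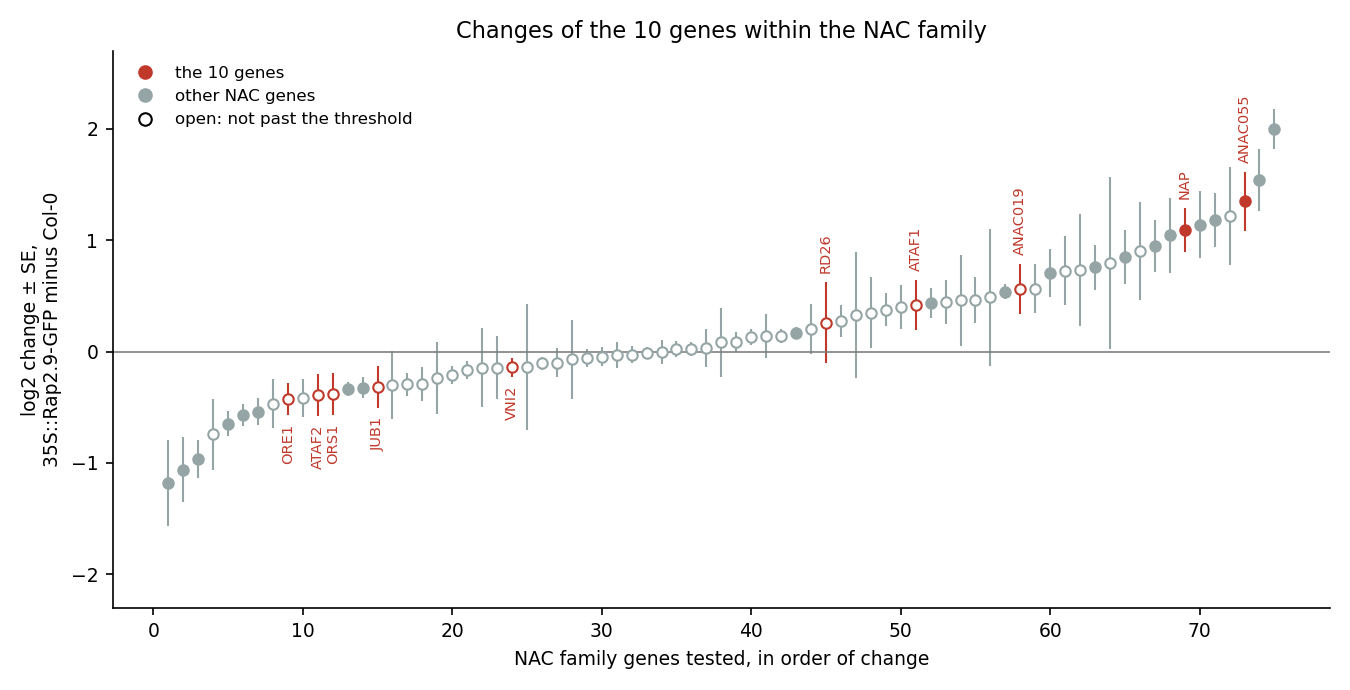
Log2 change ± SE, 35S::Rap2.9-GFP minus Col-0, of the 75 tested NAC family genes in order of change (x axis, rank). Red marks the 10 genes and grey the other NAC genes, and filled points are past the threshold. ANAC055 and NAP stand at the upper end at 1.35 and 1.09, and the other 8 lie between -0.43 and 0.56, all open.

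Changes in smaller groups of the family went both ways, beside 18.6% of all genes that rose and 16.0% that fell. Among 11 close relatives of the 10 genes, 1 rose (ANAC087, 0.76 ± 0.20, SE) and 2 fell (ANAC041, and ANAC032 at -0.54 ± 0.12, SE). The call of ANAC087 was lost in 5 of 8 fits without 1 array (adjusted p up to 0.0654). Of 4 tested NACs that carry miR164 sites besides ORE1, ANAC100 and ANAC079 (AT5G07680, NAC080 in the gene table) fell, and CUC1 and NAC1 did not pass, at 0.79 ± 0.77 and 0.03 ± 0.17. The dimmer probes of ANAC079 and NTL9 did not pass, and with normexp ANAC087, ANAC016 and NTL9 lost their calls. Among 8 membrane-bound or mitochondrial stress NACs, ANAC016, a promoter of senescence, rose by 0.54 ± 0.07 (SE) and NTL9 fell by 0.35 ± 0.07 (SE), and the other 6 did not pass. Without Col-0 replicate 1, 3 of these 8 were lower. No probe was matched to the loci MIR164A, MIR164B and MIR164C.

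Regulators known to act on these NAC genes changed in both directions: 8 of the 16 tested rose, 1 fell, and 7 did not pass. Over all genes tested 18.6% rose and 16.0% fell, the shares to set beside this count and those of the lists below. The clock genes PRR9 and CCA1, whose products are known to activate and to repress ORE1, rose by 1.21 ± 0.09 and 1.20 ± 0.09 (SE), each without overlap of the arrays. The ABA-response factor gene ABI5, an activator of ORE1, fell by 1.04 ± 0.14 (SE). In the same list the ABA-response factor genes ABF2, ABF3 and ABF4 rose, by 0.35 ± 0.07, 0.48 ± 0.06 and 0.32 ± 0.09 (SE). The red light receptor gene PHYB rose by 0.61 ± 0.12 (SE). PIF4, which both activates ORE1 and is repressed by JUB1, rose by 0.32 ± 0.10 (SE). The ethylene signalling genes EIN2, EIN3 and EIL1 changed by -0.05, -0.13 and -0.09 and MYC2 by 0.00, and these 4 did not pass. MYC3 did not pass either, at 0.13 ± 0.11 (SE), while MYC4 rose by 0.38 ± 0.12 (SE). With normexp the calls of PRR9 and CCA1 were lost (adjusted p = 0.588 and 0.178), and the call of PIF4 was lost with normexp and in 5 of 8 fits without 1 array. The regulators that rose numbered 3 with normexp and 5 to 7 with 1 array left out, lowest without transgenic replicate 1 or 2 or Col-0 replicate 4, and 2 were lower without transgenic replicate 1.

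Of 7 genes for proteins that bind or modify these NAC factors, 2 rose and 1 fell. NLA, a ubiquitin ligase that marks ORE1 for breakdown, fell by 0.39 ± 0.07 (SE). GLK2, a chloroplast maintenance factor that ORE1 binds and inhibits, rose by 0.50 ± 0.11 (SE), and CPK1, a kinase of ORE1, by 0.26 ± 0.07 (SE). The other 4 partner genes did not pass, among them the ubiquitin protease UBP12 (0.08 ± 0.05, SE) and VND7, which VNI2 binds (0.44 ± 0.20, SE). The call of CPK1 was lost with normexp and without transgenic replicate 1, Col-0 replicate 1 or Col-0 replicate 4.

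Known targets of ORE1 and ORS1 also differed in direction, with 3 of 8 tested higher and 1 lower. SAG29, a sugar transporter gene of senescing leaves, had signals of -1.81, -5.83, -4.66 and -1.58 in transgenic replicates 1 to 4, against -9.08, -9.06, -8.20 and -6.19 in Col-0 replicates 1 to 4. It was well above background on all 4 transgenic arrays and on 1 of the 4 Col-0 arrays, and its fitted change was 4.66 ± 1.12 (SE, adjusted p = 0.0162). The nuclease gene BFN1, a direct ORE1 target, rose by 0.91 ± 0.21 (SE), and its dimmer probe did not pass. The chlorophyll b reductase genes NYC1 and NOL changed by -0.27 ± 0.08 and 0.15 ± 0.05 (SE), with dimmer probes that did not pass, and each of these calls was lost with normexp and in 7 of 8 fits without 1 array. Of the 8 targets 2 were lower without transgenic replicate 2. With normexp the calls of SAG29 and BFN1 were lost (adjusted p = 0.298 and 0.787).

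Of the 2 NAP targets tested, SAG113 (table symbol HAI1), a phosphatase gene, rose by 1.38 ± 0.27 (SE) and AAO3 was at 0.01 ± 0.08 (SE). SAG113 had -1.36, -2.24, -2.00 and -1.17 in transgenic replicates 1 to 4, against -3.24, -3.38, -3.01 and -2.66 in Col-0 replicates 1 to 4. As for NAP, no arrays overlapped between the genotypes. Its adjusted p was 0.00725, and with normexp it was 0.110.

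Of 6 JUB1 targets, the gibberellin synthesis gene GA3OX1 rose by 0.84 ± 0.26 (SE), PIF4 rose as above, and the brassinosteroid synthesis gene DWF4 fell by 0.56 ± 0.10 (SE). All 3 are known to be repressed by JUB1. The stress factor gene DREB2A, which JUB1 activates, was at 0.11 ± 0.21 (SE) and did not pass. The call of GA3OX1 was lost with normexp (adjusted p = 0.383) and in 6 of 8 fits without 1 array (adjusted p up to 0.0913), and its dimmer probe did not pass. Both GA3OX1 and PIF4 lost their calls with normexp and without transgenic replicate 1, 2 or 4 or Col-0 replicate 4.

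Targets of ANAC019, ANAC055 and RD26 gave 3 higher and 2 lower of 7 tested. VSP1, a jasmonate-responsive storage protein gene that ANAC019 and ANAC055 activate, had 3.27, 3.58, 4.31 and 4.57 in transgenic replicates 1 to 4, against 0.30, -0.59, -0.14 and 1.35 in Col-0 replicates 1 to 4. Its change was 3.70 ± 0.46 (SE, adjusted p = 0.00105), and its 3 dimmer probes also rose. The lysine breakdown gene LKR/SDH, activated by RD26, rose by 0.88 ± 0.10 (SE), with 1 of 3 dimmer probes also past the threshold. ICS1, the salicylic acid synthesis gene that these NACs repress, rose by 0.65 ± 0.14 (SE), and SAGT1 (table symbol UGT74F2), a salicylic acid glucosyltransferase gene, fell by 1.05 ± 0.10 (SE). ERD1, a protease subunit gene activated by all 3 factors, fell by 0.33 ± 0.09 (SE), and LOX2, a jasmonate synthesis gene, did not pass at 0.25 ± 0.10 (SE). With 1 array left out 3 to 5 of these targets were higher, 5 of them without Col-0 replicate 4. Only 1 was lower with normexp and without transgenic replicate 1 or 4 or Col-0 replicate 2 or 3.

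None of 4 ATAF1 targets passed in limma, and 1 was higher at an unadjusted p under 0.05. The ABA importer gene ABCG40 had -1.33, -1.03, -1.37 and -1.85 in transgenic replicates 1 to 4, against -4.18, -2.28, -1.67 and -3.42 in Col-0 replicates 1 to 4, a change of 1.49 ± 0.53 (SE, adjusted p = 0.0635). Without Col-0 replicate 3, which lay within the transgenic range, it passed (adjusted p = 0.0235). GLK1 was at 0.17 ± 0.07 (SE) and the ABA synthesis gene NCED3 at 0.37 ± 0.34 (SE). All 3 ATAF2 targets tested rose. The nitrilase gene NIT2 rose by 2.39 ± 0.45 (SE), the defence gene PR1 by 1.82 ± 0.38 (SE) and the brassinosteroid-inactivating gene BAS1 by 0.95 ± 0.15 (SE). ATAF2 is known to activate NIT2 and to repress PR1 and BAS1. With normexp PR1 and BAS1 lost their calls (adjusted p = 0.0517 and 0.733).

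All 4 VNI2 targets, cold- and drought-response genes that VNI2 is known to activate, fell while VNI2 itself did not pass. COR15A, which encodes a chloroplast protein that protects membranes in the cold, had 4.26, 3.67, 3.98 and 4.12 in transgenic replicates 1 to 4, against 6.22, 6.13, 6.26 and 6.23 in Col-0 replicates 1 to 4. RD29A (table symbol LTI78) had 3.62, 3.29, 3.43 and 3.61 in transgenic replicates 1 to 4, against 5.68, 5.44, 5.41 and 5.56 in Col-0 replicates 1 to 4. Both genes were separated by over 1 log2 unit between the nearest arrays. COR15A fell by 2.20 ± 0.12 (SE), RD29A by 2.04 ± 0.10 (SE), COR15B by 1.19 ± 0.11 (SE) and RD29B (table symbol LTI65) by 0.78 ± 0.23 (SE). The call of RD29B was lost with normexp (adjusted p = 0.0587) and in 6 of 8 fits without 1 array.

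**Figure D4:**
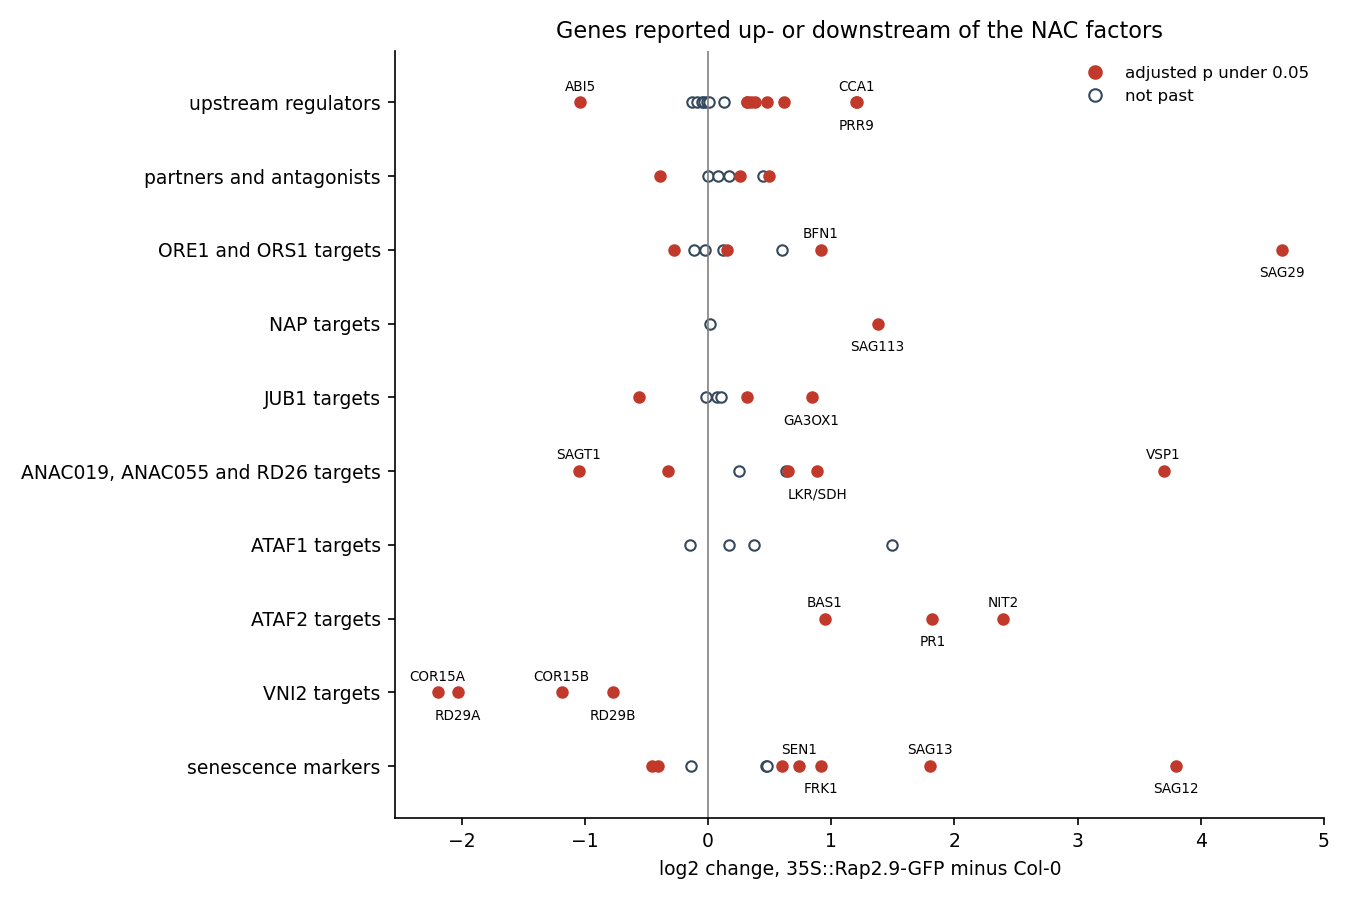
Log2 change, 35S::Rap2.9-GFP minus Col-0, of the tested genes known to act upstream of, with or downstream of the 10 NAC factors, with 1 line per list. Filled points are past the threshold, and calls with an absolute change over 0.7 are named. The 4 VNI2 targets lie between -2.20 and -0.78, the 3 ATAF2 targets between 0.95 and 2.39, the 2 NAP targets at 0.01 and 1.38, and the other lists reach both sides of 0.

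General senescence markers were mixed, with 5 of 10 higher and 2 lower, beside 18.6% and 16.0% of all genes. The protease gene SAG12, a late senescence marker, had -4.90, -0.69, -5.19 and -5.68 in transgenic replicates 1 to 4, against -8.74, -8.78, -7.55 and -6.59 in Col-0 replicates 1 to 4. It was well above background on 1 of the 4 Col-0 arrays, and transgenic replicate 2 stood far above the other transgenic arrays. Its fitted change was 3.80 ± 1.13 (SE, adjusted p = 0.0359). SAG13 rose by 1.80 ± 0.37 (SE), the defence kinase gene FRK1 by 0.92 ± 0.29 (SE) and the sugar-starvation gene SEN1 by 0.74 ± 0.22 (SE). WRKY6 rose by 0.60 ± 0.16 (SE), without overlap of the arrays. The chlorophyll-breakdown gene NYE2 fell by 0.46 ± 0.15 (SE) and the glutamine synthetase gene GLN1;1 by 0.41 ± 0.08 (SE). The dimmer probes of SAG12 and SEN1 did not pass, and with normexp SAG12, FRK1, SEN1, WRKY6, NYE2 and GLN1;1 lost their calls. Whichever array was left out, 1 to 3 of the 10 markers were higher and 1 to 2 lower, and the call of SAG12 was lost without transgenic replicate 1 or 3 or Col-0 replicate 1, 2 or 3. The calls of FRK1 and SEN1, whose arrays overlapped between the genotypes, were each lost in 7 of 8 fits without 1 array. That of SAG13 was kept in all of them.

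In the order of the gene table, 8 of the 20 genes next to the 10 loci were tested, with 2 higher and 3 lower. Over all genes 18.6% were higher and 16.0% lower. JUB1 lies next to PIF4, and VNI2 next to SAG29. ANAC055 and ANAC019 lie next to other NAC genes, NARS1 (0.08 ± 0.09, SE) and NAM (-0.30 ± 0.11, SE), and neither neighbour passed. The gene next to NAP, CYP704B1, fell by 0.94 ± 0.25 (SE), opposite to NAP. AT5G08780, next to ATAF2, fell by 0.87 ± 0.09 (SE, adjusted p = 0.000389).

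The targeted gene and markers of other cells were read on the same arrays. The brighter RAP2.9 probe (AT4G06746) rose 17.7-fold, and its dimmer probe was 3.42-fold lower. Of the markers of mesophyll, the main cell type of leaves, 1 of 3 rose, with a summed level of 345 to 491 on transgenic and 403 to 469 on Col-0 arrays, in multiples of the 75th percentile. The 5 xylem markers all rose (summed level 1.58 to 2.46 on transgenic and 0.633 to 1.57 on Col-0 arrays), as did 3 of 3 guard cell markers (2.13 to 2.31 and 1.40 to 1.84), 2 of 2 root markers (0.349 to 1.12 and 0.0804 to 0.169) and 2 of 2 tested flower markers (0.153 to 0.264 and 0.0503 to 0.116). Of 4 phloem markers 2 fell (13.1 to 15.7 and 17.2 to 20.7), and of 2 tested trichome markers none passed in limma, also at an unadjusted p under 0.05 (0.124 to 0.143 and 0.105 to 0.135). With each array left out in turn, 3 to 5 xylem, 2 to 3 guard cell and 1 to 2 root markers were higher, and 1 to 2 phloem markers lower. A phloem call was lost without transgenic replicate 4 or Col-0 replicate 3 or 4, and 1 mesophyll marker was lower without transgenic replicate 2. With normexp all the xylem, guard cell, root and flower markers lost their calls, and 1 phloem marker was lower. Over all genes tested, 11.1% passed with normexp, against 34.6% as reported. The trichome gene GL1 and the flower gene AP3 were not tested. Beside these marker counts stand 18.6% of all genes that rose and 16.0% that fell. The part of these cell types in the changes of the NAC genes and their targets was not tested.

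**Figure D5:**
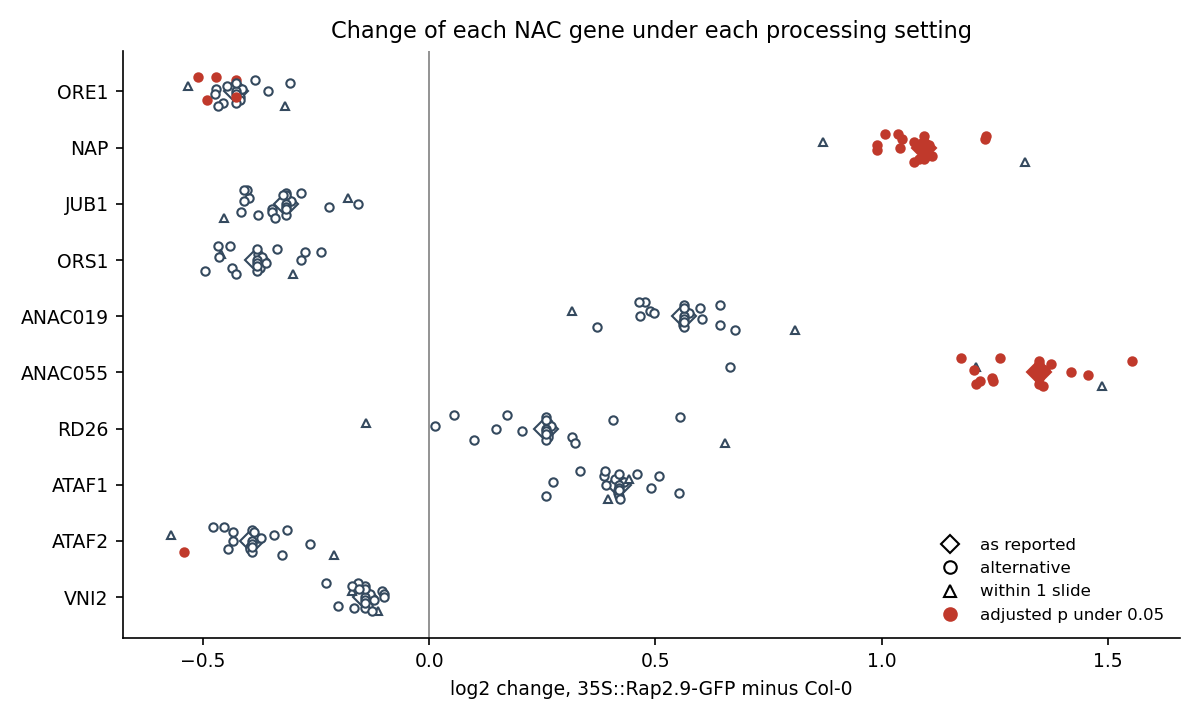
Log2 change, 35S::Rap2.9-GFP minus Col-0, of the 10 NAC genes as reported (diamonds) and under 22 alternatives (circles, and triangles for the fits within 1 slide). Red marks an adjusted p under 0.05. Only RD26 lies on both sides of 0, from -0.14 to 0.65, and NAP and ANAC055 are red as reported.

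Across the 22 alternatives, the change of NAP ranged between 0.87 and 1.32, that of ANAC055 between 0.66 and 1.55 and that of ORE1 between -0.53 and -0.31. Of these 3 genes, NAP lost its call in 2 alternatives and ANAC055 in 3, while ORE1 gained one in 5. The losses of NAP were the 2 fits within 1 slide, and those of ANAC055 were the same fits and normexp. Within slides 1 and 2, 2.1% and 0% of all genes passed. ATAF2 gained a call in 1 alternative, and the remaining 6 genes had none under any of the 22.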

How the data were processed

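The 10 genes and all gene lists were chosen with earlier results of these data known, so no list is evidence independent of them. Spot intensities in the scanner files were, per the file headers, background-subtracted and detrended by Agilent Feature Extraction 11.5.1.1 (design 021169), with no scaling between arrays. A value table that the authors deposited gives 43663 probes as log2, centred on each probe's median. How it was scaled is not stated, and comparison with the scanner files gave Pearson's r across probes of 0.934 to 0.980 on 7 arrays and 0.583 on transgenic replicate 1. Its column medians were -0.0146, -0.0040, -0.0025 and 0.0019 for transgenic replicates 1 to 4 and 0.0015, 0.0116, -0.0036 and 0.0041 for Col-0 replicates 1 to 4, and it was used as an alternative. Its column mean was 0.0165 on every array. It gave 4226 higher and 4660 lower genes, close to 4235 and 4676 with quantile scaling, so these alternatives are not independent.

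Processed intensities were taken as log2 and reduced by the array's 75th percentile, which was 1699 to 2576 units, without 1417 control spots and without the 25 to 63 spots per array marked as outliers. Probes well above background on at least 4 of 8 arrays were tested (33160), and a gene was its brightest tested probe. RefSeq transcripts, in a list of genes made for the assembly TAIR10.1 gave a locus for 34348 probes and none for 9255, and 20276 of the genes tested have a locus name. The array header names TAIR10, so no positions are printed. Genotypes were compared by the two-sided moderated test of limma 3.58.1 (R 4.3.3, with 1.17.8 of the package data.table), with Benjamini-Hochberg adjustment over all genes and a threshold of 0.05. The fit was tested on simulated data, and no outcome of that test is reported here.

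Named were the 10 genes, RAP2.9, up to 4 genes per list past the threshold with the largest change (2 with the smallest p where none passed), up to 5 NAC genes in each direction, and the 2 genes nearest in pattern to each of the 10 that passed. Other genes named, and the 5 pairs compared, were chosen after their values were seen. Alternatives changed background correction (normexp, offset 50, on the median signal in place of the mean signal planned), scaling, filters, probe use, slide, replicate number, array weights and the arrays kept. The number of arrays limits the precision.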

Additional observations from a re-analysis of the deposited data

Results flagged for a closer look

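Of 152 groups of 4 arrays, 4 held an array whose gap to the nearest other array, divided by the range of the group, exceeded Dixon's 95% critical value, and chance gives about 1 in 20 groups. ORE1 was 0.88 on Col-0 replicate 2 and 0.38 to 0.43 on the other Col-0 arrays. DWF4 was -0.36 on the same array and -0.04 to 0.01 on the others. PHYB was -0.39 on Col-0 replicate 4 and -0.25 to -0.24 on the other Col-0 arrays. SAG12 was -0.69 on transgenic replicate 2 and -5.68 to -4.90 on the other transgenic arrays.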

How the results depend on the processing

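Over all genes, 4657 were higher and 4023 lower, against 1285 and 1499 with normexp, 217 and 309 within slide 1, and 0 and 0 within slide 2, where limma at an unadjusted p under 0.05 gave 4050 and 3060. With each array left out they ranged between 3523 and 4340 higher and 3021 and 4011 lower. Of the genes past the threshold 53.7% were higher, against 38.9% with median scaling (3197 higher and 5012 lower). Of the 10 NAC genes 2 were higher, against 1 with normexp, 0 within slide 1 and 0 within slide 2 (2 and 0 at an unadjusted p under 0.05), and 2 in every fit that left out 1 array. The count of lower ones was 0, against 1 with median scaling, with the filter at all 8 arrays and with array weights, and 0 to 1 with each array left out. ORE1 was that gene under the first 3, and without transgenic replicate 2. The NAC family had 14 higher and 8 lower genes, against 1 and 3 with normexp, 9 higher with no filter, and 0 and 0 within either slide (7 and 8 on slide 1 and 6 and 7 on slide 2 at an unadjusted p under 0.05). Leaving out 1 array gave 7 to 13 higher and 5 to 10 lower family genes, the fewest lower without transgenic replicate 4 or Col-0 replicate 3. Replicate numbers did not pair the arrays, with correlations of deviations of 0.14, -0.09, -0.29 and 0.26 for numbers 1 to 4 and the same-numbered partner best for 1 number only. With the replicate block, 4020 genes were higher and 2968 lower, and of the 10 genes 2 were higher and 1 lower (ORE1, adjusted p = 0.0274), and of the NAC family 10 and 7. The direction of RD26 turned within slide 2 (-0.14), that of the trichome gene TRY with normexp (-0.13), quantile scaling (-0.18) and the deposited table (-0.17), and that of GL2 with normexp (-0.039) and within slide 2 (-0.0062), and none of these had passed. Over 76 named genes and 1667 alternative values, 1315 kept direction and side of the threshold, 337 lost the call and 9 gained it. The cause was not tested for any of these shifts, and a fit within a slide had 2 arrays per genotype. Normexp used the median signal. Low signal limits the precision for ANAC055, SAG29 and SAG12.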
